A study of Mus musculus with 12 samples.

Results

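The genes described here are 6 transporters that liver cells use to take up organic anions and related compounds from blood or to pass lipid into bile: Slco1a1, Slco1a4, Slco1b2, Slco2b1, Slc22a7 and Abcb4. They were chosen by symbol, as every probe annotated to one of these names, with the probe of the highest mean over the 12 arrays standing for each gene. All 6 had a probe among the 19057 genes on the array, and all 6 were among the 12475 genes tested, each with a probe above background on both arrays of at least 1 group. Slco1a1 and Slco1a4 passed that filter through untreated hepatocytes alone, and the other 4 were above background on all 12 arrays.

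The study measured RNA of hepatocytes, macrophages and sinusoidal endothelial cells (SEC, the lining of the liver's capillaries) from livers of male C57Bl/6 mice that the sample titles mark as WT. The DEN mice had received diethylnitrosamine, a carcinogen that hepatocytes activate, as 1 intraperitoneal dose of 25 mg/kg on postnatal day 25, and tumours were followed over the next 9 months. The untreated mice were of matching age. Each of the 6 groups (DEN hepatocytes, untreated hepatocytes, DEN macrophages, untreated macrophages, DEN SEC and untreated SEC) had 2 Illumina bead arrays. The labels say that RNA from 3 to 4 DEN mice was pooled. They give neither the method of cell isolation nor whether tumour tissue was included. The labels do not say that the 2 arrays of a group held separate pools, so the p-values measure the spread between arrays, which may be technical.

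Uptake across the sinusoidal membrane of the hepatocyte, which faces the blood, is carried largely by organic anion transporting polypeptides, the products of the Slco genes, and by members of the SLC22 family. Export across the canalicular membrane into bile is carried by ATP-driven pumps of the ABC family. In hepatocytes the genes of both steps are known to depend on liver-enriched transcription factors and on nuclear receptors that sense bile acids and foreign compounds.

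Slco1a1, Slco1a4 and Slco1b2 lie together on chromosome 6 in the mouse, and Abcb4 lies on chromosome 5. Their promoters are shown as those of the transporters to which RefSeq gives a single start site. Each stretch runs 5′ to 3′ on the gene's strand, from 250 bases before to 50 bases after the start site that RefSeq gives on GRCm38.p6. Capitals mark matches, on either strand and at any position, to TATAAA, the letters of the TATA box, and to CCAAT, those of the CCAAT box.
Slco1a1, chr6:141946913-141947212, minus strand: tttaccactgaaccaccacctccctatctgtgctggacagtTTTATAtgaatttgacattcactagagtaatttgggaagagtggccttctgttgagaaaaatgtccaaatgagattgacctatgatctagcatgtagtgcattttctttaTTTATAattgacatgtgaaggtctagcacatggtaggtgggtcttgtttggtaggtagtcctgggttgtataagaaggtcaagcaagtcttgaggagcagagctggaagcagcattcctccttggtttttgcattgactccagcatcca
Slco1a4, chr6:141856171-141856470, minus strand: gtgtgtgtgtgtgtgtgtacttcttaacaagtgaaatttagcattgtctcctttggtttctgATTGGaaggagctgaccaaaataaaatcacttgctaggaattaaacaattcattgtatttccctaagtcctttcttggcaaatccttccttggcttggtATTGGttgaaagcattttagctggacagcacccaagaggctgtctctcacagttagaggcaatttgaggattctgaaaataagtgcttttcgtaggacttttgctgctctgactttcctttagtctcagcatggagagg
Slco1b2, chr6:141629268-141629567, plus strand: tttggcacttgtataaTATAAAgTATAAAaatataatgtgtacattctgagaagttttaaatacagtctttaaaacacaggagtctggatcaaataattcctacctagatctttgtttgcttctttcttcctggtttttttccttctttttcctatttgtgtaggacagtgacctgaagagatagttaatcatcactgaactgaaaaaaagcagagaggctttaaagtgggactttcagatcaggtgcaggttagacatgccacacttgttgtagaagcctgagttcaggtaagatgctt
Abcb4, chr5:8893471-8893770, plus strand: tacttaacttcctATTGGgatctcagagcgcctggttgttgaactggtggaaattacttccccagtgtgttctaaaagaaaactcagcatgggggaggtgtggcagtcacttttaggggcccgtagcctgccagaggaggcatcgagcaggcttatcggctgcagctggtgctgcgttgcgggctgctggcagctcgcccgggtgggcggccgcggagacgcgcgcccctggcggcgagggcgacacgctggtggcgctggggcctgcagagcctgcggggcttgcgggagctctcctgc
TATAAA was found in Slco1b2 and Slco1a1, with 2 matches each, and in 13.6% of 32851 mouse promoters of the same 300 bases. Relative to the start site, the matches began at -234 and -227 in Slco1b2. In Slco1a1 they lay at -209 and -99, on the strand opposite to the gene. CCAAT was found in Slco1a4 (2 matches) and Abcb4 (1 match), and in 37.4% of all promoters. Neither motif was held by all 4 promoters. Slco2b1 on chromosome 7 has 3 start sites in RefSeq, which are not printed, with TATAAA at 0 of them and CCAAT at 1. Their GC content was 42.0% in Slco1a1, 40.7% in Slco1a4, 35.3% in Slco1b2 and 64.0% in Abcb4, against a median of 52.7% over all promoters. The matches describe these letters only and say nothing of binding.

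The cell type labels were checked against marker genes before the transporters were compared. All 19 hepatocyte markers tested were higher in untreated hepatocytes than in untreated macrophages and than in untreated SEC. Of all genes 27.9% and 28.3% were called higher in these comparisons. For Fgb, Tat and Fabp1, above background in untreated hepatocytes alone, the filter fixed this direction, so they do not bear on the check. The median level of 13 Kupffer cell markers was 13.55 in untreated macrophages and 11.68 in untreated SEC, so the SEC preparation carried Kupffer cell transcripts. In DEN macrophages this median was 9.02, below the 11.58 of DEN SEC. The median of 14 SEC markers was 13.28 in DEN SEC and 13.30 in untreated SEC. All levels are the deposited log2 values, whose lowest value on each array was 7.19 and highest 15.19. The background limit of an array, set by probes for olfactory and vomeronasal receptors, lay between 7.42 and 7.57. Between 14314 and 21552 probes per array lay above it.

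**Figure D1:**
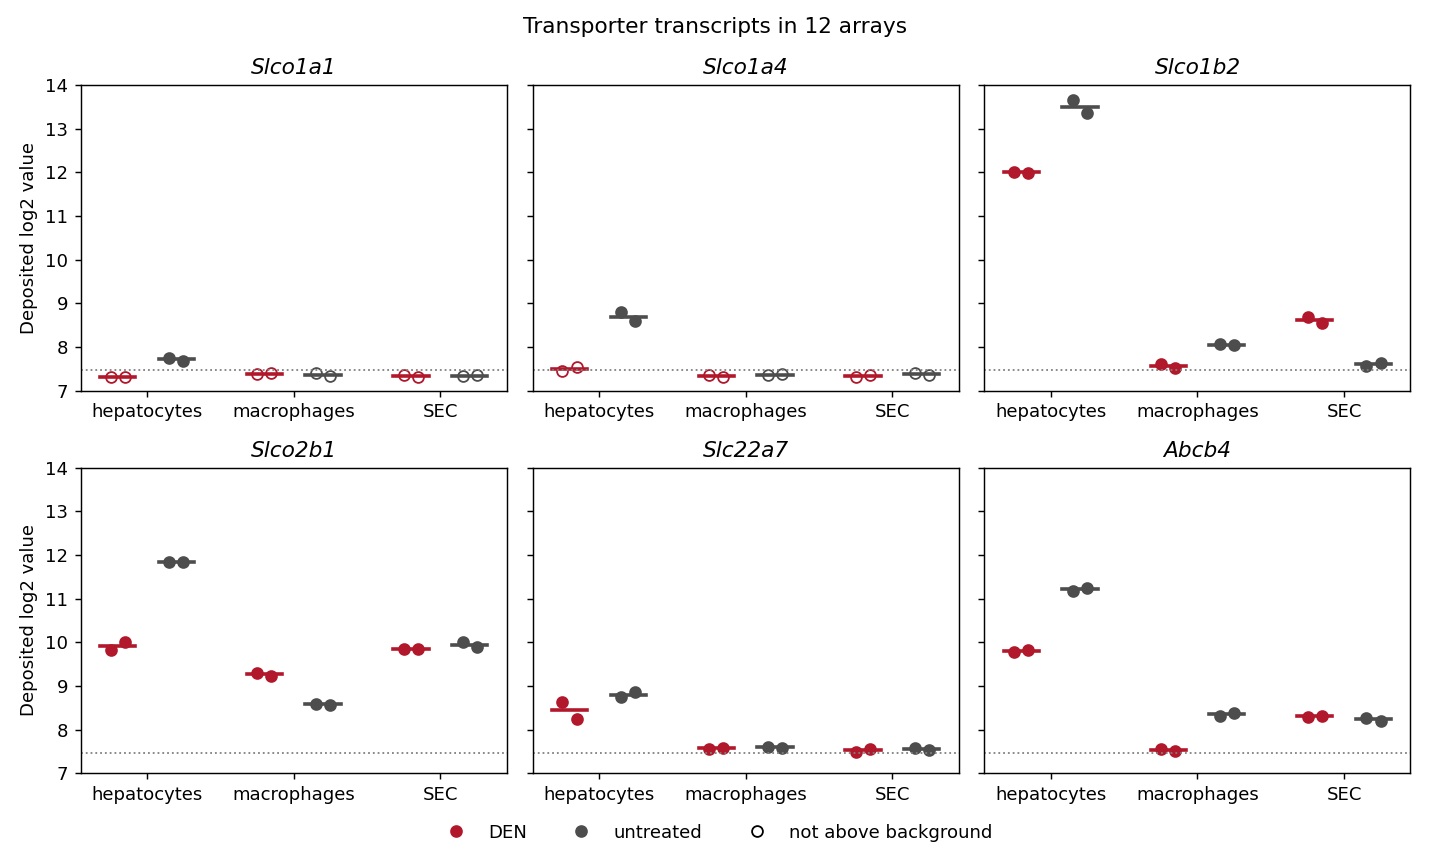
Deposited log2 level of the 6 transporters on each of the 12 arrays, with DEN to the left of untreated in each cell type. Each point is 1 array, the bars are group means, open points were not above the background limit of their array, and the dotted line is the mean of these limits over the 12 arrays. Untreated hepatocytes had the highest level of the 4 genes that were above background on all arrays, and Slco1a1 and Slco1a4 were above background in untreated hepatocytes alone.

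In hepatocytes the 4 transporters above background on all 12 arrays, Slco1b2, Slco2b1, Slc22a7 and Abcb4, were all lower in DEN mice. Slco1a1 and Slco1a4 entered the test through untreated hepatocytes alone, so that filter fixed their direction, and they are left out of the counts. Of all 12475 genes 36.0% were called lower in this comparison and 31.7% higher, so a call in itself sets a transporter little apart. The DEN arrays of all 4 lay below both untreated arrays, as did those of 41.5% of all genes. At least 2-fold lower were 3 of the 4, where 8.69% of all genes were. The median change over the 4 genes was -1.45, beside -0.02 over all genes tested. The size of a change differs with the probe and with the treatment of background, so the genes are not ranked by it. Tests are limma's moderated test with Benjamini-Hochberg adjustment over all genes, at an adjusted p of 0.05, and each change is DEN minus untreated on the log2 scale, ± SE (n = 2 arrays in each group).

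Slco1b2 encodes the liver's own member of the Slco family in rodents, which takes up bile acids, bilirubin and many drugs. It stood at 12.01 and 11.99 in DEN hepatocytes, against 13.65 and 13.35 in untreated hepatocytes. Its change was -1.50 ± 0.09 (adjusted p = 4.23e-08), a 2.82-fold lower level, and the groups did not overlap. A second probe for Slco1b2 gave 7.98 and 7.62 in DEN hepatocytes, against 11.26 and 10.84 in untreated hepatocytes. The change on that probe was larger, -3.25 ± 0.13 (adjusted p = 1.56e-09). Both probes thus put every DEN array below every untreated array, but they differ in the size of the fall. The remaining Slco1b2 probe was not above background on any array.

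Slco2b1 encodes a transporter of sulfated steroids and drugs that is found in many tissues. It stood at 9.82 and 10.01 in DEN hepatocytes, against 11.83 and 11.85 in untreated hepatocytes. The change was -1.93 ± 0.06 (adjusted p = 4.01e-10), or 3.80-fold lower. Of all genes 2.20% had a lower change on the deposited values, which may compress the changes of dim probes.

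Abcb4 encodes the canalicular floppase that delivers phosphatidylcholine into bile. It stood at 9.79 and 9.82 in DEN hepatocytes, against 11.17 and 11.25 in untreated hepatocytes. The groups lay far apart relative to their spread, with a change of -1.41 ± 0.05 (adjusted p = 8.32e-10), or 2.65-fold lower.

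Slco1a4 encodes a sinusoidal carrier of bile acids and cardiac glycosides that is also known from brain capillaries. It stood at 7.46 and 7.55 in DEN hepatocytes, which was not above background, against 8.81 and 8.59 in untreated hepatocytes. The measured change was -1.19 ± 0.07 (adjusted p = 4.29e-08). The filter fixed its direction, so this p-value is no evidence of a fall. With the background limit in place of the DEN level, Slco1a4 was at least 2.20-fold lower. Subtracting each array's background on the linear scale first turned the change into -3.02, so its size depends on how background is treated. A second Slco1a4 probe was not above background on any array.

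Slco1a1 encodes a sinusoidal carrier of steroid conjugates and bile acids that male mice are known to express more than female mice. It stood at 7.31 on both arrays of DEN hepatocytes, not above background, against 7.76 and 7.68 in untreated hepatocytes. The untreated level was itself close to background. The change was -0.41 ± 0.05 (adjusted p = 1.77e-05), at least 1.11-fold lower, and -1.95 after background subtraction. As for Slco1a4, the filter fixed the direction, and the p-value is no evidence of a fall.

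Slc22a7 encodes an organic anion transporter of the sinusoidal membrane. It stood at 8.64 and 8.25 in DEN hepatocytes, against 8.74 and 8.86 in untreated hepatocytes. The groups did not overlap, but the nearest arrays were only about as far apart as the untreated pair, and the 2 DEN arrays differed most. The change was -0.36 ± 0.10 (adjusted p = 0.00839), and -0.59 after background subtraction. The call was lost without untreated replicate 2 (-0.30, adjusted p = 0.0638) and with only the 4 hepatocyte arrays in the fit (adjusted p = 0.0752). The change was -0.16 without DEN replicate 2 and -0.55 without DEN replicate 1.

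**Figure D2:**
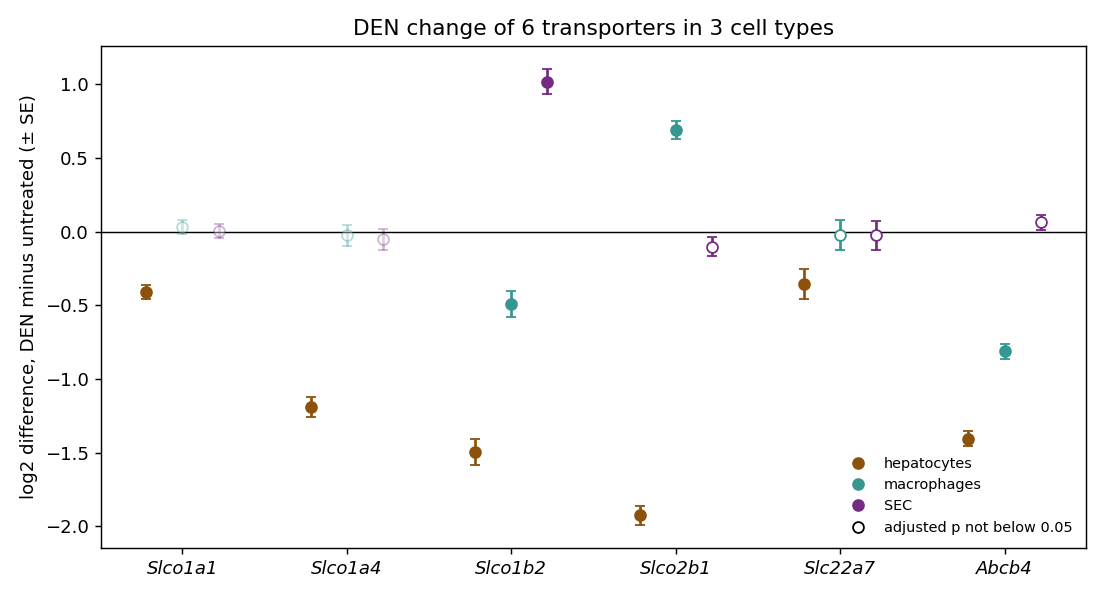
Log2 change, DEN minus untreated, of each transporter in hepatocytes, macrophages and SEC, with the SE of the fit as bars (n = 2 arrays per group). Pale points are genes that were not above background in either group. Hepatocytes lie below 0 for the 4 genes above background on all arrays, Slco2b1 lies at 0.69 in macrophages and Slco1b2 at 1.02 in SEC.

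Markers of other cells moved in the same hepatocyte arrays. All 8 erythroid and platelet markers were higher in DEN hepatocytes, and their summed level (log2 of the sum of linear values) was 16.92 to 16.96 in DEN hepatocytes and 11.48 to 11.63 in untreated hepatocytes. Of 12 neutrophil markers 10 were higher, with a summed level of 15.08 to 15.10 in DEN hepatocytes and 11.04 to 11.05 in untreated hepatocytes. The summed levels of every other non-hepatocyte list were higher too. For monocyte and recruited macrophage markers they were 14.97 to 15.02 in DEN hepatocytes and 12.01 to 12.07 in untreated hepatocytes. In the same order they were 12.84 to 12.91 and 10.73 to 10.83 for cholangiocyte markers, and 14.24 to 14.30 and 12.65 to 12.71 for Kupffer cell markers. Of 19 hepatocyte markers 14 were lower and 0 higher, with a median change of -0.43, and their summed level was 17.68 to 17.71 in DEN hepatocytes and 18.23 to 18.25 in untreated hepatocytes. Of these 19 markers 3 (Fgb, Tat and Fabp1) were not above background in DEN hepatocytes and 0 in untreated hepatocytes. These 3 were above background in untreated hepatocytes alone, so the filter fixed their direction and their fall is no evidence of marker loss. Of all genes 36.0% were lower in this comparison. The part of these shifts in the transporter changes was not tested. In bulk RNA, fewer hepatocytes and less transporter RNA per hepatocyte cannot be told apart.

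Other transporters of the 2 gene families did not all go the same way in DEN hepatocytes. Of all genes 36.0% were called lower and 31.7% higher in this comparison. The counts of these and the related lists below include genes given as bounds, which were not above background in 1 of the 2 groups. Where such a gene passed the filter through the other group alone, the filter fixed its direction, and its call is no evidence of a change. Of the other Slco genes 4 were tested, with 2 higher and 1 lower. Slco3a1, a broadly expressed carrier of prostaglandins, rose by 1.44 ± 0.09, and Slco2a1, the prostaglandin transporter, fell by 1.19 ± 0.07. Slco4a1, a thyroid hormone carrier, was at least 1.05-fold higher. Of the other SLC22 genes 10 were tested, with 2 higher and 4 lower. Slc22a30 was at least 11.6-fold lower and Slc22a28 at least 9.67-fold lower, both not above background in DEN hepatocytes. Slc22a18 fell by 1.28 ± 0.06 and Slc22a23 fell by 0.97 ± 0.09. Slc22a22, a prostaglandin carrier, was at least 1.32-fold higher. The medians were 0.18 over the 4 Slco genes and -0.03 over the 10 SLC22 genes.

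Among 13 other hepatobiliary transporters 10 were lower and 2 higher in DEN hepatocytes, with a median of -0.88. Of all genes 36.0% were lower and 31.7% higher. Abcb11, the bile salt export pump, stood at 7.93 in DEN hepatocytes and 11.62 in untreated hepatocytes (means of 2 arrays), a change of -3.69 ± 0.05. Slc47a1, an exporter of organic cations, fell by 2.61 ± 0.11, and Atp8b1, a canalicular aminophospholipid flippase, fell by 1.68 ± 0.06. Abcc2, which exports conjugated bilirubin, fell by 1.47 ± 0.09, and Abcg5, a subunit of the sterol exporter, fell by 1.35 ± 0.07. Slc10a1, the sodium-dependent bile acid carrier, was at least 1.64-fold lower. Abcc3 fell by 0.43 ± 0.11 (adjusted p = 0.00566) and Abcc4 rose by 0.84 ± 0.09.

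Next were 12 transcription factors and nuclear receptors that act on such genes in hepatocytes. In DEN hepatocytes 10 were lower and 0 higher, with a median of -0.71, where 36.0% of all genes were lower and 31.7% higher. Nr1h4, the bile acid receptor, fell by 1.91 ± 0.05, and Hnf4a, a liver-enriched factor, fell by 1.61 ± 0.08. Cebpa, a factor of differentiated hepatocytes, was at least 3.07-fold lower. The receptors for foreign compounds Nr1i2 (-1.57 ± 0.11) and Nr1i3 (-1.003 ± 0.14) were lower as well. Nr0b2, a corepressor, was not above background in any group.

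**Figure D3:**
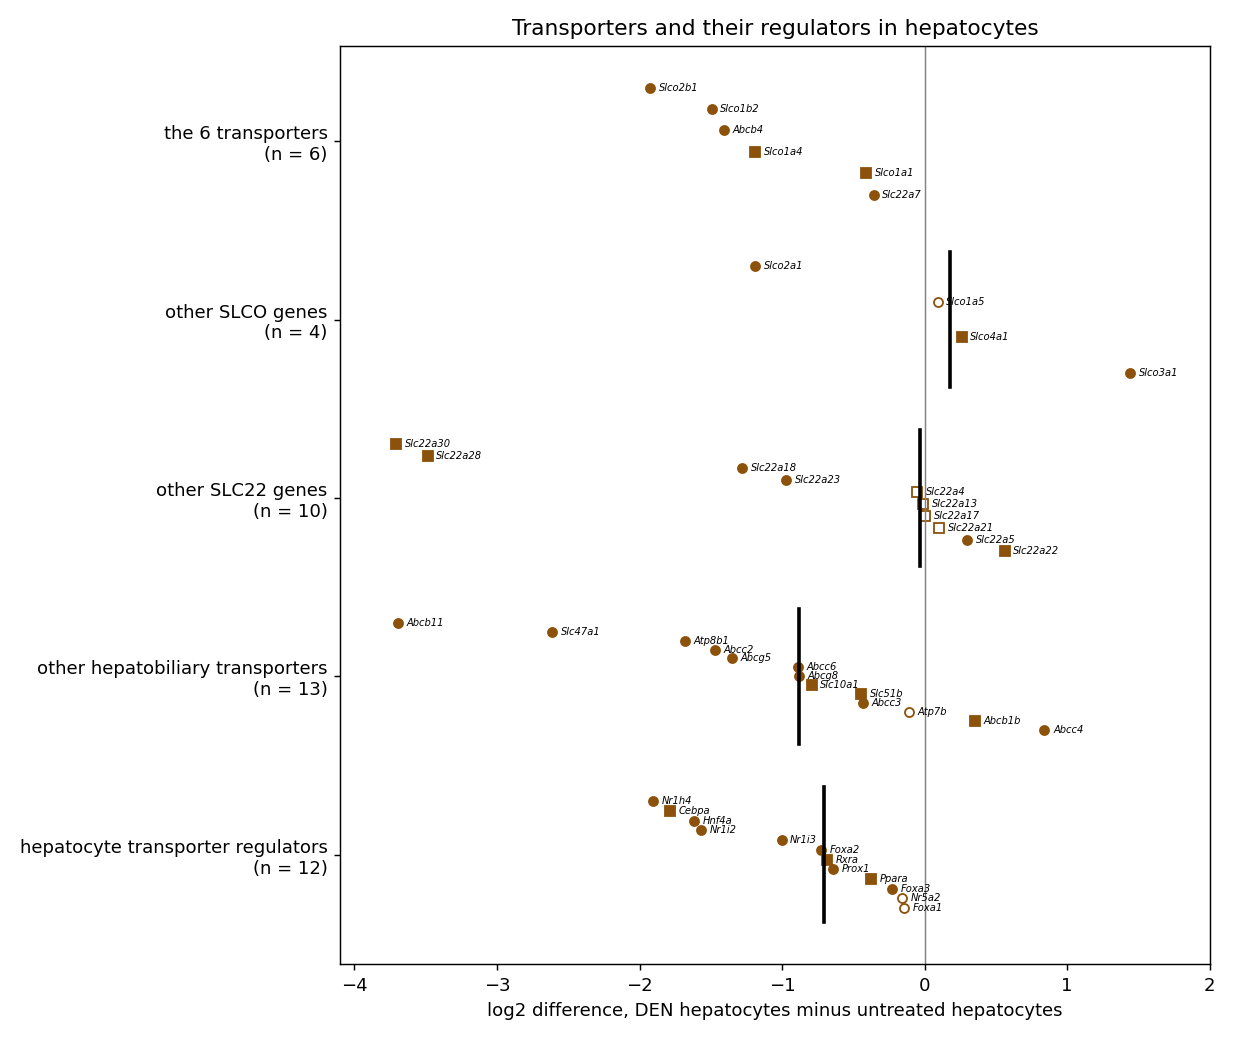
Log2 change in hepatocytes, DEN minus untreated, of the 6 transporters and of 4 groups of related genes. Each point is 1 gene, filled where it passed an adjusted p of 0.05 and square where it was not above background in at least 1 of the 2 groups, and the black line is the median of each related group. The medians lie at -0.88 for the other hepatobiliary transporters and -0.71 for the regulators, and Slco1a1 and Slco1a4 are squares.

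In macrophages 1 transporter was higher and 2 were lower in DEN mice, where 18.6% of all genes were called higher and 24.3% lower. Slco2b1 stood at 9.29 and 9.24 in DEN macrophages, against 8.59 and 8.56 in untreated macrophages. It rose by 0.69 ± 0.06 (adjusted p = 5.31e-06), or 1.61-fold, opposite in sign to its change in hepatocytes. Abcb4 stood at 7.57 and 7.50 in DEN macrophages, just above background, against 8.32 and 8.38 in untreated macrophages. Its change was -0.81 ± 0.05 (adjusted p = 2.24e-07), and -2.24 after background subtraction. Slco1b2 stood at 7.61 and 7.51 in DEN macrophages, against 8.08 and 8.04 in untreated macrophages. Its change was -0.49 ± 0.09 (adjusted p = 7.90e-04), and -1.53 after background subtraction. The groups of these 3 genes did not overlap, as was so for 32.2% of all genes with DEN higher and for 42.5% with DEN lower. Slc22a7 stood at 7.56 and 7.58 in DEN macrophages, against 7.61 and 7.58 in untreated macrophages, and did not pass (-0.03 ± 0.10, adjusted p = 0.887). Slco1a1 and Slco1a4 were not above background in either group.

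The macrophage preparations differed in their cell markers too. Of 13 Kupffer cell markers 12 were lower, with a summed level of 14.41 to 14.48 in DEN macrophages and 17.57 to 17.59 in untreated macrophages. All 12 neutrophil markers were higher, with a summed level of 15.71 to 16.02 in DEN macrophages and 13.21 to 13.22 in untreated macrophages. Of 7 T and NK cell markers 6 were higher, with 15.51 to 15.55 in DEN macrophages and 13.79 to 13.84 in untreated macrophages. All 5 B and plasma cell markers were higher, with 12.97 to 12.99 in DEN macrophages and 11.48 to 11.51 in untreated macrophages. Higher as well were 8 of 10 monocyte and recruited macrophage markers and 7 of 8 erythroid and platelet markers. Of 14 SEC markers 8 were lower and 1 higher, with 13.36 to 13.37 in DEN macrophages and 14.71 to 14.72 in untreated macrophages. Of 11 stellate cell and fibroblast markers 6 were lower and 1 higher, with 11.20 to 11.25 in DEN macrophages and 13.59 to 13.64 in untreated macrophages. Of 19 hepatocyte markers 9 were lower and 1 higher, with a summed level of 13.26 to 13.44 in DEN macrophages and 13.67 to 13.68 in untreated macrophages. The part of these shifts in the changes of Slco2b1, Slco1b2 and Abcb4 was not tested.

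The related genes in macrophages are set beside 18.6% of all genes higher and 24.3% lower. Here 2 of the 4 other Slco genes were higher and 1 lower. Slco2a1 fell by 1.20 ± 0.07, and Slco4a1 (0.42 ± 0.08) and Slco3a1 (0.26 ± 0.09) were higher. Of 10 other SLC22 genes 0 were higher and 3 lower: Slc22a18 (-0.97 ± 0.06), Slc22a23 (-0.97 ± 0.09) and Slc22a17 (-0.52 ± 0.06). Of 13 other hepatobiliary transporters 2 were lower and 1 higher. Abcc3 stood at 8.44 in DEN macrophages and 11.20 in untreated macrophages, a change of -2.76 ± 0.11. Abcc4 fell by 0.78 ± 0.09, and Abcb1b, a drug efflux pump, rose by 0.51 ± 0.05. Of the 12 regulators 0 were higher and 3 lower, among them Cebpa (-0.57 ± 0.05) and Nr1h4 (at least 1.69-fold lower).

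In SEC 1 transporter was higher and 0 were lower in DEN mice, where 2.56% of all genes were called higher and 0.994% lower. Slco1b2 stood at 8.69 and 8.55 in DEN SEC, against 7.56 and 7.65 in untreated SEC. It rose by 1.02 ± 0.09 (adjusted p = 2.82e-05), or 2.02-fold, and by 2.40 after background subtraction. Both DEN arrays lay above both untreated arrays, for which no share over all genes is given. Of all genes 0.681% were at least 2-fold higher. The second Slco1b2 probe stayed at background, at 7.43 on both arrays of DEN SEC, against 7.33 and 7.36 in untreated SEC (0.08, adjusted p = 0.962). Only 1 probe thus showed the rise, but the second is much dimmer. In DEN hepatocytes the second read 7.98 and 7.62, near background, where the first read 12.01 and 11.99. At the levels of the first probe in SEC, the second could not have shown a rise, so its flat values do not bear on it. Slco2b1 stood at 9.85 and 9.84 in DEN SEC, against 10.00 and 9.90 in untreated SEC (-0.10 ± 0.06, adjusted p = 0.626). Abcb4 stood at 8.29 and 8.31 in DEN SEC, against 8.27 and 8.20 in untreated SEC (0.06 ± 0.05, adjusted p = 0.780). Slc22a7 stood at 7.50 and 7.57 in DEN SEC, against 7.57 and 7.54 in untreated SEC (-0.03 ± 0.10, adjusted p = 0.994). Slco1a1 and Slco1a4 were not above background in either group.

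Markers of several other cells were higher in the same SEC arrays as Slco1b2. Of 19 hepatocyte markers 10 were higher and 0 lower, with a summed level of 15.26 to 15.29 in DEN SEC and 12.74 to 12.76 in untreated SEC. Apoa1, an apolipoprotein of hepatocytes, rose by 3.65 and Ttr, the thyroxine carrier, by 2.51. Of 8 erythroid and platelet markers 6 were higher, with a summed level of 15.99 to 16.04 in DEN SEC and 12.09 to 12.12 in untreated SEC. Of 12 neutrophil markers 8 were higher, with 13.60 to 13.65 in DEN SEC and 11.85 on both arrays of untreated SEC. The summed level of 14 SEC markers was 17.12 to 17.13 in DEN SEC and 17.09 to 17.13 in untreated SEC. The part of these shifts in the rise of Slco1b2 was not tested. Of the 4 other Slco genes, the 10 other SLC22 genes and the 13 other hepatobiliary transporters 0 passed in either direction. Of the 12 regulators 2 were higher, where 2.56% of all genes were. They were Foxa3 (0.42 ± 0.05) and Hnf4a (0.38 ± 0.08), both factors of hepatocytes.

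The DEN changes were then compared between cell types, as the difference of 2 changes in the same fit. Between hepatocytes and macrophages 3 of the 4 transporters above background on all arrays had a lower change in hepatocytes, where 32.2% of all genes did. Slco2b1 differed by -2.62 ± 0.09 (adjusted p = 1.13e-09), since it fell in one cell type and rose in the other. Slco1b2 differed by -1.002 ± 0.12 (adjusted p = 3.16e-05) and Abcb4 by -0.59 ± 0.07 (adjusted p = 2.82e-05), but these 2 values depend on background. After background subtraction the difference was 0.00 for Slco1b2 (adjusted p = 0.991) and 0.67 for Abcb4 (adjusted p = 0.00895), whose sign turned. Slc22a7 did not pass (-0.33 ± 0.14, adjusted p = 0.0630).

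Between hepatocytes and SEC 3 of the same 4 had a lower change in hepatocytes, where 30.1% of all genes did. Slco1b2 differed by -2.51 ± 0.12 (adjusted p = 1.93e-08), Slco2b1 by -1.82 ± 0.09 (adjusted p = 2.02e-08) and Abcb4 by -1.47 ± 0.07 (adjusted p = 1.87e-08). Slc22a7 again did not pass (-0.33 ± 0.14, adjusted p = 0.0672). Between macrophages and SEC 2 transporters had a lower change in macrophages and 1 a higher one, where 17.6% and 15.3% of all genes did. These were Slco1b2 (-1.51 ± 0.12, adjusted p = 3.50e-06), Abcb4 (-0.88 ± 0.07, adjusted p = 3.59e-06) and Slco2b1 (0.79 ± 0.09, adjusted p = 4.54e-05). On the second Slco1b2 probe this difference was -0.16 (adjusted p = 0.605), but that probe lay at background in macrophages and SEC and could not show it.

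In untreated mice the 4 transporters above background on all arrays were higher in hepatocytes than in macrophages, where 27.9% of all genes were, and than in SEC, where 28.3% were. All 4 were at least 2-fold higher in each, where 9.65% and 10.1% of all genes were. Both comparisons, and the hepatocyte comparison with DEN, share the 2 untreated hepatocyte arrays. The difference for Slco1b2 was 5.44 ± 0.09 over macrophages and 5.90 ± 0.09 over SEC. For Abcb4 it was 2.86 ± 0.05 and 2.97 ± 0.05, and for Slc22a7 1.21 ± 0.10 and 1.24 ± 0.10. Slco1a4 was at least 2.40-fold and Slco1a1 at least 1.22-fold higher in hepatocytes than in either cell type, in which both were not above background, and the filter fixed this direction for both. For Slco2b1 the difference was 3.26 ± 0.06 over macrophages and 1.89 ± 0.06 over SEC. Between untreated macrophages and SEC it was lower in macrophages (-1.37 ± 0.06, adjusted p = 1.40e-08), where 22.2% of all genes were lower. Slco1b2 was higher in untreated macrophages than in SEC by 0.45 ± 0.09 (adjusted p = 0.00128), where 23.1% of all genes were higher.

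Put as a share of the untreated hepatocyte signal, on the linear scale after background subtraction, Slco2b1 reached 24.5% and 22.6% on the 2 arrays of untreated SEC. Slc22a7 averaged 8.79%, Abcb4 6.27% and Slco1b2 0.270% in the same arrays. Of the hepatocyte markers 14 were above background there, with a median of 0.838% and a highest value of 4.27%, that of Ttr. In untreated SEC, Slco2b1, Slc22a7 and Abcb4 lay above the highest of these markers, and Slco1b2 below their median. The shares of Slc22a7, here and below, are those of a dim probe. Its mean was 8.80 in untreated hepatocytes and 7.53 to 7.59 in the macrophage and SEC groups, close to background. They depend strongly on the background taken off and are not evidence of Slc22a7 expression in these cells. In untreated macrophages Slc22a7 averaged 10.6%, Abcb4 7.37%, Slco2b1 6.24% and Slco1b2 0.895%, where 14 markers had a median of 1.75% and a highest value of 10.2%. As a share of the DEN hepatocyte signal, Slco2b1 averaged 94.3%, Abcb4 20.96%, Slc22a7 11.9% and Slco1b2 5.87% in DEN SEC. There 15 markers had a median of 10.2% and a highest value of 27.9%, that of Apoa2, so Slco2b1 alone of the 4 lay above it and Slco1b2 lay below the median. In DEN macrophages Slco2b1 averaged 56.5%, Slc22a7 14.1%, Abcb4 3.00% and Slco1b2 0.647%, where 12 markers had a median of 2.08% and a highest value of 20.2%, that of Ass1. Slco2b1 alone lay above that marker too. This measure was chosen after the levels had been seen and carries no test.

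**Figure D4:**
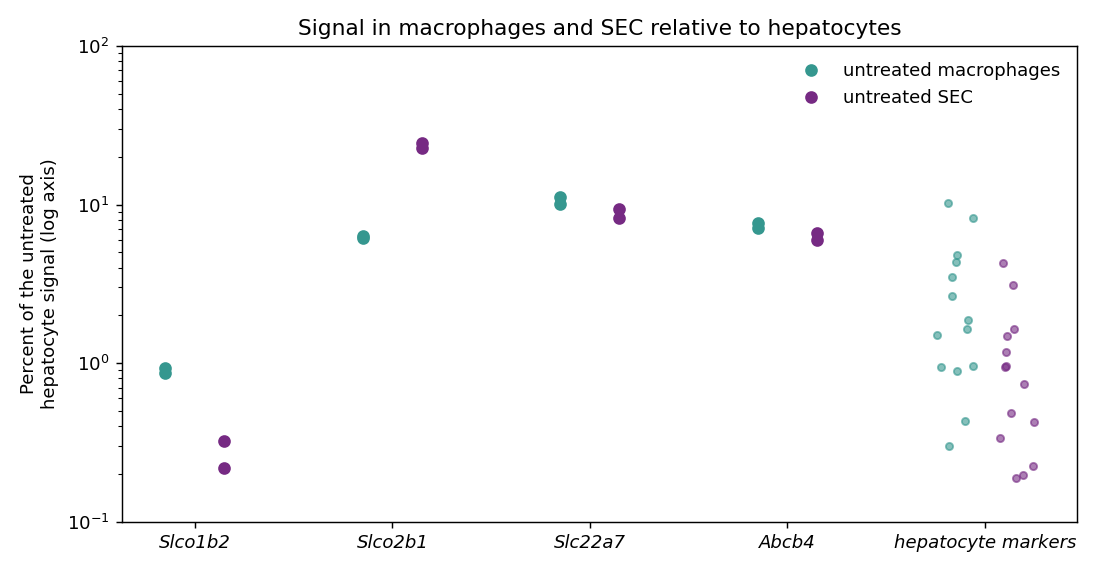
Signal of 4 transporters in untreated macrophages and untreated SEC as a percentage of the untreated hepatocyte signal, on a log axis. Large points are single arrays, and small points are the hepatocyte markers above background (means of 2 arrays). Slco2b1 in SEC lies at 22.6% and 24.5%, above all markers in SEC.

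In DEN mice the 4 transporters were higher in hepatocytes than in macrophages, where 27.8% of all genes were. These were Slco1b2 (4.44 ± 0.09), Abcb4 (2.27 ± 0.05), Slc22a7 (0.87 ± 0.10) and Slco2b1 (0.65 ± 0.06). Between DEN hepatocytes and DEN SEC 3 of these 4 passed as higher in hepatocytes, where 26.8% of all genes did, and 3 to 4 did with an array left out. They were Slco1b2 (3.38 ± 0.09), Abcb4 (1.50 ± 0.05) and Slc22a7 (0.91 ± 0.10). Slco2b1 did not pass (0.07 ± 0.06, adjusted p = 0.355), but was 0.21 with cyclic loess (adjusted p = 0.0122), 0.16 without DEN hepatocyte replicate 1 (adjusted p = 0.0271) and -0.02 without replicate 2. Slco1b2 (-1.06 ± 0.09), Abcb4 (-0.77 ± 0.05) and Slco2b1 (-0.58 ± 0.06) were lower in DEN macrophages than in DEN SEC, where 28.8% of all genes were.

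The 6 groups were ordered by their mean level of each gene. Slco2b1 was highest in untreated hepatocytes (11.84 ± 0.01, SD, n = 2), and then untreated SEC (9.95 ± 0.07), DEN hepatocytes (9.91 ± 0.13) and DEN SEC (9.84 ± 0.01) followed. The 2 arrays of DEN hepatocytes spanned those of both SEC groups. DEN macrophages (9.27 ± 0.04) and untreated macrophages (8.58 ± 0.02) came last. Abcb4 was highest in untreated hepatocytes (11.21 ± 0.05) and then DEN hepatocytes (9.80 ± 0.02). Untreated macrophages (8.35 ± 0.04), DEN SEC (8.30 ± 0.01) and untreated SEC (8.24 ± 0.05) were next, and neither the macrophage nor the DEN difference from untreated SEC passed. DEN macrophages (7.54 ± 0.04) were lowest. Slco1b2 ran from untreated hepatocytes (13.50 ± 0.21) over DEN hepatocytes (12.004 ± 0.02), DEN SEC (8.62 ± 0.10) and untreated macrophages (8.06 ± 0.03) to untreated SEC (7.60 ± 0.06) and DEN macrophages (7.56 ± 0.07), and the last 2 overlapped. Slc22a7 was highest in untreated hepatocytes (8.80 ± 0.08) and DEN hepatocytes (8.44 ± 0.28), and the other 4 groups lay between 7.53 and 7.59.

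Across the 12 arrays the transporters' levels moved together to different degrees, as described by Pearson's r over arrays that share their cell types and pools. Slco1a1 and Slco1a4 were above background on 2 arrays only, those of untreated hepatocytes. Each r with either gene therefore mainly sets these 2 arrays against values at background, and does not describe a pattern over the 6 groups. Slco1b2 and Abcb4 had r = 0.971, Slco1b2 and Slc22a7 r = 0.970, and Slco1a1 and Slco1b2 r = 0.645, the lowest of the 15 pairs. Among all genes tested, the patterns most like that of Slco1b2 were those of Mettl7b (r = 0.999), C8g (0.998) and Ces1b (0.998). Abcb4 was most like Tmem97 (0.997), Mup21 (0.995) and Bhmt (0.994), and Slco1a4 most like Chpt1 (0.998), Prkaa2 (0.998) and Cyp2d13 (0.997). Slc22a7 was most like Hapln4 (0.994), Shroom1 (0.993) and Sh3yl1 (0.987). Slco2b1 was most like Psen2 (0.986), Bcr (0.983) and Cers2 (0.977), and Slco1a1 most like Chp1 (0.990), Fh1 (0.987) and Nectin1 (0.986).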

How the data were processed

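The deposited values are on a log2 scale, as read from the values, and the authors made them with lumi, per the submitters' processing notes. Neither its version nor the transform is given there, so the transform may be lumi's log2-like variant, which compresses differences of dim probes. The arrays share 1 distribution, and no background was subtracted. A deposited table of non-normalized intensities was not used, because its 12 signal columns and 12 detection columns carry names that match no sample label.

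Of 45281 probes 34885 had 1 gene symbol, 18 had several and 10378 had none. Names came from the platform annotation and a GRCm38.p6 gene table. Probes were kept that exceeded, on both arrays of at least 1 group, the 95th percentile of 1504 olfactory and vomeronasal receptor probes, and the kept probe with the highest mean stood for its gene. A group with both arrays below that limit has only a bound, given as at least that many fold, against the higher of the background limit and the probe's own value. limma 3.58.1 in R 4.3.3 was run (lmFit, then eBayes) with a mean for each of the 6 groups, 6 residual degrees of freedom and 12 contrasts, two-sided, and was tested on simulated data. Replicates correlated with r between 0.991 and 0.998 across probes, and the number of arrays limits the precision. The replicate numbers were not used to pair the samples in the main fit. Correlations of same-numbered deviations lay between -0.06 and 0.08. If the spread between arrays is technical, this cannot show whether same-numbered arrays share mice. Named genes are the 6 transporters, from each related list up to 5 passing genes with the largest change per DEN comparison, a preset group given whatever its result, and the 3 most similar genes per transporter. The members, lists and markers were chosen with earlier results of these data known. Alternatives were background subtraction with an offset of 16, cyclic loess, no filter and the 99th percentile, a trended robust spread, a replicate block, the compared arrays alone, other probes and each replicate left out. Promoters are RefSeq's, with an entry for 5 transporters, of which the 4 with a single start site are printed. Python 3.11.15 and matplotlib 3.10.9 drew the figures.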

Additional observations from a re-analysis of the deposited data

Results flagged for a closer look

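For 13 pairs of a transporter and 2 cell types, limma's test of the difference between DEN changes passed, and these are given again here with all their values. They include Slco1a1 and Slco1a4, which were left out of the counts above. Of all genes 32.2% had a lower change in hepatocytes than in macrophages, and 30.1% a lower change than in SEC. Between macrophages and SEC 17.6% of all genes had a lower change in macrophages and 15.3% a higher one. Between hepatocytes and macrophages (hepatocytes minus macrophages) the differences were -0.44 for Slco1a1 (adjusted p = 2.07e-04), -1.16 for Slco1a4 (1.47e-06), -1.002 for Slco1b2 (3.16e-05), -2.62 for Slco2b1 (1.13e-09) and -0.59 for Abcb4 (2.82e-05). Between hepatocytes and SEC they were -0.41 for Slco1a1 (3.24e-04), -1.14 for Slco1a4 (1.88e-06), -2.51 for Slco1b2 (1.93e-08), -1.82 for Slco2b1 (2.02e-08) and -1.47 for Abcb4 (1.87e-08). Between macrophages and SEC they were -1.51 for Slco1b2 (3.50e-06), 0.79 for Slco2b1 (4.54e-05) and -0.88 for Abcb4 (3.59e-06). Slco1a1 and Slco1a4 were above background in untreated hepatocytes alone, so for these 2 genes 1 of the 4 groups in each difference was above background. They entered the test through that group, so the filter fixed the sign of their differences. Their p-values are therefore no evidence of a difference between cell types, and the sizes rest on values not above background. For Slco1b2 and Abcb4 in hepatocytes against macrophages, the difference did not keep its sign when background was subtracted. With 2 arrays per group, no array could be judged as standing apart from its group.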

How the results depend on the processing

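Under the alternatives the 4 transporters above background on all arrays kept their direction in the DEN hepatocyte comparison. Slc22a7 lost its call with only the 4 arrays compared (-0.36, adjusted p = 0.0752) and without untreated replicate 2 (-0.30). Leaving out 1 replicate gave -0.55 to -0.16 for Slc22a7, 3 to 4 of these 4 lower and 8037 to 8429 genes passing (8438 with all arrays). In SEC the genes passing numbered 443, against 816 with only the 4 arrays compared and 278 to 292 with a replicate left out, and 72.0% of them were higher, against 83.1% with cyclic loess and 91.6% with background subtracted. On the second Slco1b2 probe the change in SEC was 0.08, its difference between macrophages and SEC was -0.16, and the level in DEN macrophages minus DEN SEC was -0.11 (adjusted p = 0.522). That probe lay at background in macrophages and SEC, so these values do not bear on the first probe. Slc22a7 in SEC ranged from -0.062 to 0.0084, the last without DEN SEC replicate 1. For hepatocytes against macrophages, background subtraction left 3 of the 6 transporters with a lower change (1 of these 4) and 1 with a higher change, with 0.0037 for Slco1b2 and 0.67 for Abcb4, and the cause was not tested. Slc22a7 passed there with a trended robust spread (-0.33, adjusted p = 0.0474) and without DEN hepatocyte replicate 1 (-0.53), as it did against SEC (-0.53). Slco2b1 in DEN hepatocytes against DEN SEC was 0.21 with cyclic loess (adjusted p = 0.0122), 0.16 without DEN hepatocyte replicate 1 (adjusted p = 0.0271) and -0.024 without DEN hepatocyte replicate 2. Cyclic loess moved the share higher among passing genes to 52.9% for DEN hepatocytes against DEN SEC (40.0% otherwise) and against DEN macrophages (41.3% otherwise). Background subtraction moved the median of all genes to -0.17 for untreated hepatocytes against macrophages and -0.21 against SEC, and in DEN mice to -0.24 and -0.32. The replicate block changed no transporter's call, with 8421 genes passing in hepatocytes. The unused probes of Slco1a4 and Slco1b2 that were not above background gave no value.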
